A study of Homo sapiens with 6 samples.

Results

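Retinoic acid is made inside cells from retinol (vitamin A), is held by small binding proteins and is destroyed by dedicated enzymes, and 10 genes of these steps were examined in T47D cells after knockdown of CUEDC1. T47D is an oestrogen receptor-positive line of human breast ductal carcinoma cells, cultured in a serum-containing medium. Poly(A) RNA was sequenced in 3 libraries with short hairpin RNA against CUEDC1 (shCUEDC1) and in 3 libraries with non-targeting short hairpin RNA (shNC), all 6 from cells stably carrying a lentivirus. The labels give neither the number of hairpins nor that of infections. Loss of CUEDC1 and other effects of a hairpin therefore cannot be told apart, and the p-values below speak only of library-to-library spread, which may be technical. In bulk RNA, fewer cells with a transcript and less of it per cell also cannot be told apart. ALDH1A1 was picked for its lower level in shCUEDC1, that is, chosen by the comparison described here. The other 9 genes were chosen by their role in the same pathway, but with earlier results of these data known. Of the 10 genes, 9 were among the 17758 genes of the deposited table, 7 passed the filter on low counts, and ALDH1A2 was not analysed here.

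In the pathway, STRA6 takes up retinol at the cell surface. RDH10 oxidises retinol to retinal, DHRS3 reduces retinal back to retinol, and the ALDH1A enzymes oxidise retinal to retinoic acid in a step that is not reversed. CRABP1 and CRABP2 bind retinoic acid in the cytosol, CRABP2 passing it to nuclear retinoic acid receptors, and the cytochromes CYP26A1 and CYP26B1 inactivate it. Retinoic acid restrains the growth of many oestrogen receptor-positive breast cancer lines, and ALDH1A1 and ALDH1A3 carry much of the aldehyde dehydrogenase activity that is used to mark stem-like breast cancer cells.

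Promoter windows are shown for the genes on which the results turn: both ALDH1A enzymes, which were lower in every shCUEDC1 library, and CYP26A1, which is induced by retinoic acid and so reports on the pathway it closes. The retinoic acid receptor gene RARB, named after its values were seen, is shown because it holds the best-known retinoic acid response element. The windows run from 250 bases before to 50 bases after a RefSeq start site on GRCh38.p14 and are written 5′ to 3′ along the gene. Capitals mark CCAAT boxes and direct repeats with 5 bases between (DR5, the classical retinoic acid response element), a DR5 being any pair drawn from AGGTCA and AGTTCA and GGGTCA and GGTTCA, in the same direction. Both strands were searched. The ALDH1A1 window is chr9:72953004-72953303 on the minus strand, that of ALDH1A3 is chr15:100879581-100879880 on the plus strand, that of CYP26A1 is chr10:93073643-93073942 on the plus strand, and that of RARB is chr3:25428013-25428312 on the plus strand.
ALDH1A1: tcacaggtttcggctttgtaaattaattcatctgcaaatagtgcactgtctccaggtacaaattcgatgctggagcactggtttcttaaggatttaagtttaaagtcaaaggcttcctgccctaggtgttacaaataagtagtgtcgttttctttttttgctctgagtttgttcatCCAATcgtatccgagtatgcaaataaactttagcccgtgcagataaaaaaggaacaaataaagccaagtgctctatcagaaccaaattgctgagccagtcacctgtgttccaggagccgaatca
ALDH1A3: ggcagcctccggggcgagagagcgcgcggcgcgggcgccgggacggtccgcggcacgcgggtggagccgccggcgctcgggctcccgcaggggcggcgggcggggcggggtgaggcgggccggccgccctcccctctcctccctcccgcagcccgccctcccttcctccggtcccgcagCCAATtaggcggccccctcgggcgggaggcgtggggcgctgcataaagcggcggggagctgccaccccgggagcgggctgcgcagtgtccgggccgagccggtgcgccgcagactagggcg
CYP26A1: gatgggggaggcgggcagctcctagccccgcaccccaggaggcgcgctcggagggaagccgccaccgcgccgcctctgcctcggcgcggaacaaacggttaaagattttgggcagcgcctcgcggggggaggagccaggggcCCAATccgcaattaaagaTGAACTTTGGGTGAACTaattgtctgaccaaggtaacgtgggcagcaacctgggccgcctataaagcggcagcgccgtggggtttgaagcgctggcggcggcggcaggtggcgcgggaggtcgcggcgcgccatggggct
RARB: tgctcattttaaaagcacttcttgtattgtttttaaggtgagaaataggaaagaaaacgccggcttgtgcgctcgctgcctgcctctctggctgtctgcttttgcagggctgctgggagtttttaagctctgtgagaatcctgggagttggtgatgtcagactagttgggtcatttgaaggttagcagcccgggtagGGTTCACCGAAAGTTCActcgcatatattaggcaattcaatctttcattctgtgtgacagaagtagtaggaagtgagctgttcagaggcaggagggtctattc

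CYP26A1 holds a DR5 at bases 161 to 177 of its window, read on the opposite strand, and RARB holds one at bases 198 to 214. A DR5 was found in 0.0883% of the 35116 promoter windows of the table. ALDH1A1 and ALDH1A3 each hold a CCAAT box, at 74 and 71 bases before the start, an element found in 34.6% of all windows. The other window of CYP26A1, the windows of both ALDH1A genes, and those of DHRS3, STRA6, CRABP1, CRABP2 and CYP26B1 do not contain these DR5 letters, which says nothing about elements elsewhere. RDH10 had no entry.

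The totals were between 18924327 and 19731609 estimated reads per library, and 13824 genes were tested. CUEDC1, the knockdown target and a CUE-domain protein, was at 23.2, 24.4 and 22.8 TPM (a transcript level corrected for gene length and library depth) in shCUEDC1 1, 2 and 3, and at 79.4, 80.5 and 70.6 TPM in shNC 1, 2 and 3. It fell by 68.9% (log2 change -1.68, SE 0.0755, edgeR adjusted p = 9.27e-06). The luminal label held, with the keratin KRT8 at 4052 ± 154 TPM in shCUEDC1 and 3595 ± 875 TPM in shNC, and ESR1, the oestrogen receptor, at 42.9 ± 1.25 TPM in shCUEDC1 and 38.4 ± 5.66 TPM in shNC (SD, n = 3 each). The summed level of 12 leukocyte, endothelial and fibroblast markers was 13.2 to 14.7 TPM in shCUEDC1 and 9.72 to 11.6 TPM in shNC, and none of them was at 0 in all libraries. Of the 7 tested, 0 were called by edgeR, beside 9.96% of all genes tested, and 1 had an unadjusted p below 0.05, beside 25.2%. That one was LUM, a fibroblast proteoglycan, named after its values were seen, at 4.92 ± 0.95 TPM in shCUEDC1 and 2.03 ± 1.15 TPM in shNC (log2 difference 1.29, edgeR adjusted p = 0.0744; SD, n = 3 each). PTPRC, a leukocyte marker, was at 0.84 ± 0.246 TPM in shCUEDC1 and 1.02 ± 0.301 TPM in shNC, and the part of such cells in the values below was not tested. One control library, shNC 3, stood apart by the SD of the log2 difference of depth-scaled read counts (CPM), taken over genes averaging 10 CPM or more. This SD was 0.246 and 0.266 between shNC 3 and shNC 1 and 2, against 0.109 between shNC 1 and shNC 2. Between the shCUEDC1 libraries and shNC 1 and 2 it was 0.235 to 0.247. Library shNC 3 was thus about as far from the other controls as the shCUEDC1 libraries were. Results are therefore given with and without shNC 3. Leaving out shNC 3 singles out a library by its values and keeps the controls most alike. The p-values and counts of that fit therefore lean towards more calls, and are given only to show how results depend on this library.

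**Figure D1:**
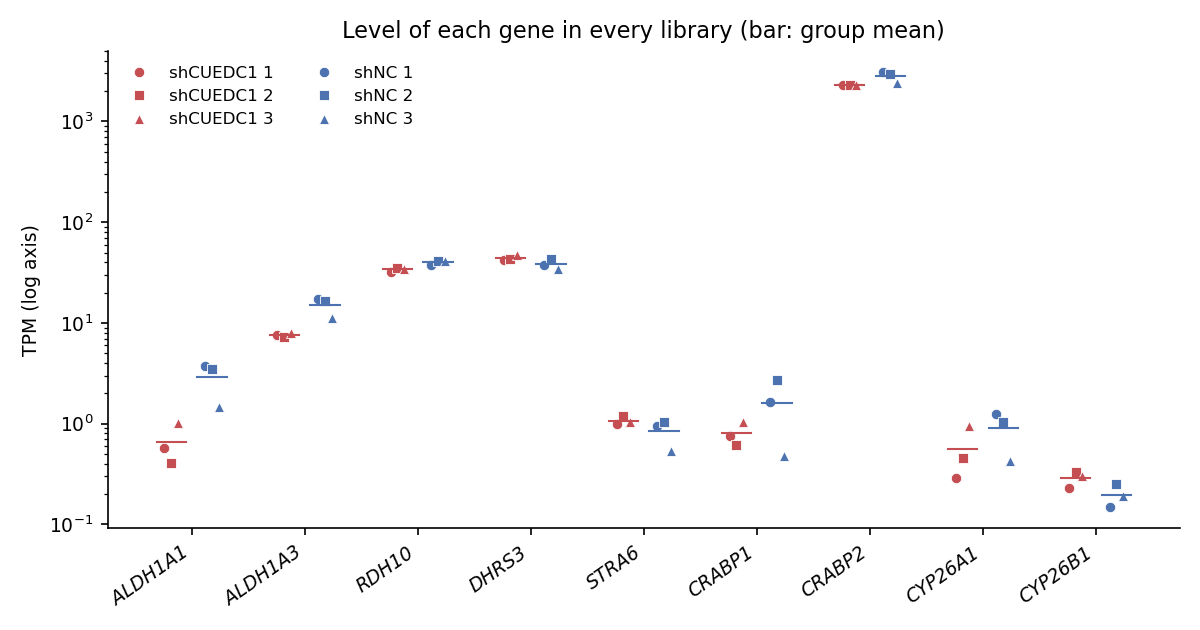
TPM of the 9 genes in each of the 6 libraries on a log axis, with shCUEDC1 in red left of shNC in blue, one marker shape per replicate number, and bars at the group means. CRABP2 lies at 2285 TPM or more in every library, while ALDH1A1, STRA6, CRABP1, CYP26A1 and CYP26B1 lie under 4 TPM in every library.

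Leaving aside ALDH1A1, the retinal dehydrogenase ALDH1A3 was the pathway gene called by edgeR with all libraries, about 1.95-fold lower in shCUEDC1. That call was lost without shCUEDC1 1 or without shCUEDC1 2. ALDH1A1 was lower beside ALDH1A3 by description. Of the 6 tested genes other than ALDH1A1, 1 was called lower (ALDH1A3), 0 higher and 5 were not called at an adjusted p below 0.05 by edgeR. An unadjusted p below 0.05 was reached by ALDH1A3 and by 3 of the uncalled genes (RDH10, DHRS3 and CRABP2), beside 25.2% of all genes tested. Over all genes tested, 9.96% were called in either direction and 4.77% were called lower. Counting ALDH1A1, 2 of the 7 were past the threshold, a count that the choice of ALDH1A1 helped to fix. The median log2 change of the 6 without ALDH1A1 was -0.23, beside -0.004 over all genes tested.

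ALDH1A1 (Entrez 216), an enzyme that oxidises retinal to retinoic acid, occupies bases 72900662 to 73080442 of chromosome 9, minus strand (GENCODE v29 on GRCh38). It was at 0.57, 0.41 and 1.01 TPM in shCUEDC1 1, 2 and 3, and at 3.75, 3.49 and 1.46 TPM in shNC 1, 2 and 3. The groups did not overlap, but shNC 3 lay nearer to the highest shCUEDC1 library than to the other shNC libraries. These levels rest on 11, 8 and 20 estimated reads in shCUEDC1, against 74.0, 69 and 27 in shNC. The log2 change was -2.10 (SE 0.441), about 4.29-fold lower in shCUEDC1, given as a description since this gap chose the gene. It was -2.42 without shNC 3 and -2.56 without shCUEDC1 3, the library with the most ALDH1A1 reads of its group. Leaving out any other library gave a smaller fall, of -1.99 to -1.85. On the log2(FPKM + 0.5) scale, which understates changes at such low levels, it was -1.18.

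ALDH1A3 (Entrez 220), a second retinal dehydrogenase and the more abundant one here, occupies bases 100877714 to 100916626 of chromosome 15, plus strand. It was at 7.55, 7.23 and 7.90 TPM in shCUEDC1 1, 2 and 3, and at 17.5, 16.5 and 11.3 TPM in shNC 1, 2 and 3. Every shCUEDC1 library was below every shNC library, and shNC 3 was again the lowest control. The fall of ALDH1A3 was -0.96 in log2 with an interval (95%) of -1.34 to -0.58, and its edgeR adjusted p was 0.00859. The shCUEDC1 libraries held 227 to 247 estimated reads of it, against 325 to 546 in the shNC libraries. Without shNC 3 the log2 change was -1.14 (edgeR adjusted p = 4.77e-12). The call was lost without shCUEDC1 1 (edgeR adjusted p = 0.0523) and without shCUEDC1 2 (0.0553). Antisense transcripts overlap this gene and the counting's use of strand is not given, so their reads cannot be told apart.

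The summed level of both enzymes was 7.64 to 8.91 TPM in shCUEDC1 and 12.7 to 21.2 TPM in shNC. ALDH1A1 made up 5.37% to 11.3% of that sum in shCUEDC1 and 11.5% to 17.7% in shNC. ALDH1A3 therefore supplied most of the summed message of ALDH1A1 and ALDH1A3 in all 6 libraries, ALDH1A2 not being analysed. The share of ALDH1A1 was lower in each shCUEDC1 library than in any shNC library, by a narrow margin between shCUEDC1 3 and shNC 3. The summed level of a list of basal and mesenchymal markers, likewise lowest in shNC 3 among the controls, was 37.7 to 41.3 TPM in shCUEDC1, and 57.5, 56.1 and 37.4 TPM in shNC 1, 2 and 3. Most of this sum was ACTA2, an actin, named after its values were seen. ACTA2 was at 29.9, 27.3 and 31.1 TPM in shCUEDC1 1, 2 and 3, and at 41.5, 39.7 and 24.4 TPM in shNC 1, 2 and 3. It was not called (log2 difference -0.23, edgeR adjusted p = 0.495). Of the 8 genes of the list 5 were tested and 1 was called (20%, beside 9.96% of all genes tested). It was SPARC, a matrix protein, which fell by 1.46 on the log2 scale (edgeR adjusted p = 0.00151). Unlike the sum, SPARC was highest in shNC 3, with 1.49, 1.66 and 1.36 TPM in shCUEDC1 1, 2 and 3, and 3.75, 3.62 and 5.31 TPM in shNC 1, 2 and 3. KRT5 and KRT14, basal keratins, stayed under 1 TPM in every library, KRT5 being at 0 in shCUEDC1 2, and the part of such cells in the ALDH1A values was not tested.

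**Figure D2:**
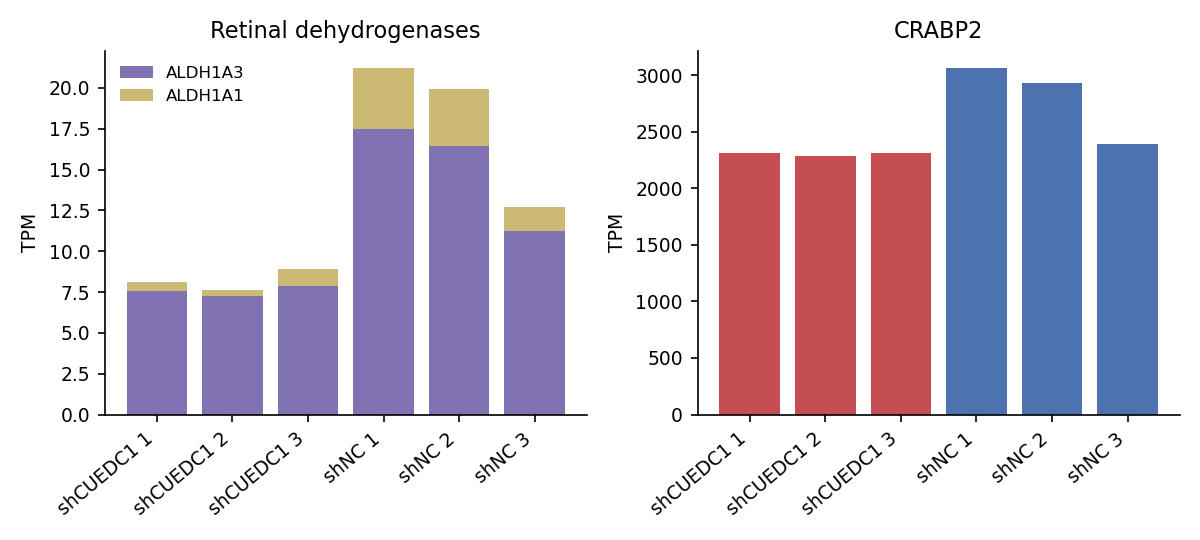
Stacked TPM of ALDH1A3 and ALDH1A1 (left) and TPM of CRABP2 (right) in each library, with shCUEDC1 1 to 3 left of shNC 1 to 3. The stacked level is 7.64 to 8.91 TPM in shCUEDC1 and 12.7 to 21.2 TPM in shNC, with shNC 3 the lowest control in both panels.

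The interconversion of retinol and retinal is run by an opposed pair of enzymes. RDH10 (Entrez 157506), which oxidises retinol, was at 32.2, 35.5 and 34.3 TPM in shCUEDC1 1, 2 and 3, and at 37.4, 41.0 and 41.3 TPM in shNC 1, 2 and 3. The groups did not overlap, but the gap was small: the log2 difference was -0.20 (edgeR adjusted p = 0.0720; 95% interval -0.35 to -0.06), and RDH10 was not called. It was called without shNC 3 (-0.19, edgeR adjusted p = 0.00875) and in no other fit. Among the 7 tested genes RDH10 was the one for which shNC 3 was not the lowest control, and RPL7, a ribosomal protein gene, overlaps it on the opposite strand, so its counts are uncertain without strand.

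DHRS3 (Entrez 9249), which reduces retinal to retinol and is itself induced by retinoic acid, was at 42.5, 43.0 and 46.7 TPM in shCUEDC1 1, 2 and 3, and at 37.7, 43.1 and 34.4 TPM in shNC 1, 2 and 3. The groups overlapped through shNC 2. Its log2 difference was 0.26 (edgeR adjusted p = 0.157; 95% interval 0.03 to 0.49), and it was called without shNC 2 (0.38, edgeR adjusted p = 0.0337). The ratio of DHRS3 to RDH10 in TPM was 1.21 to 1.36 in shCUEDC1 and 0.832 to 1.05 in shNC, a description of values already given that has no test. DHRS3 exceeded RDH10 in TPM in 5 of the 6 libraries, all but shNC 3.

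CRABP2 (Entrez 1382), which delivers retinoic acid to its receptors, was by far the most abundant gene of the pathway and made up 96.1% to 96.8% of the summed TPM of the 9 genes in all 6 libraries. Its gene occupies bases 156699606 to 156705816 of chromosome 1, minus strand. It was at 2315, 2285 and 2314 TPM in shCUEDC1 1, 2 and 3, and at 3062, 2930 and 2393 TPM in shNC 1, 2 and 3. By TPM it ranked 42 to 45 among all genes of the table in shCUEDC1 and 29 to 43 in shNC. The shCUEDC1 libraries were within a narrow range, and shNC 3 lay just above them and well below shNC 1 and 2.

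The position of shNC 3 decided the call of CRABP2. Its log2 difference was -0.25 (edgeR adjusted p = 0.125; 95% interval -0.46 to -0.04) with all libraries, and it was not called. Without shNC 3 it was -0.36 (edgeR adjusted p = 7.01e-09; 95% interval -0.44 to -0.28), and DESeq2 called it with all libraries (-0.25, DESeq2 adjusted p = 0.0459). In CPM, shNC 3 with 1048 CPM lay within the shCUEDC1 range of 1033 to 1077 CPM, whereas in TPM the groups did not overlap. Relative to the mean log2 CPM of shNC 1 and 2, CRABP2 was at -0.37 in shCUEDC1 and also at -0.37 in shNC 3.

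CRABP1 (Entrez 1381), the other cytosolic binding protein, was at 0.76, 0.61 and 1.05 TPM in shCUEDC1 1, 2 and 3, and at 1.65, 2.70 and 0.48 TPM in shNC 1, 2 and 3. The groups overlapped through shNC 3, the lowest library of all. With 4 to 7 estimated reads in shCUEDC1 and 2.97 to 18 in shNC it did not pass the filter with all libraries. Without shNC 3 it passed, but only through shNC 1 and 2, the libraries where it was higher, so the filter itself favoured a fall. Its log2 change in that fit, -1.40 (95% interval -2.40 to -0.39), is therefore given as a description. FABP5, which carries retinoic acid to another receptor, was at 0.113 ± 0.0981 TPM in shCUEDC1 and 0.0567 ± 0.0981 TPM in shNC (SD, n = 3 each), although its reads could be split with processed pseudogenes. Among the 3 carriers of retinoic acid measured, CRABP2 was thus the one with a high level in these cells.

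STRA6 (Entrez 64220), the retinol transporter, was at 0.99, 1.20 and 1.03 TPM in shCUEDC1 1, 2 and 3, and at 0.94, 1.04 and 0.54 TPM in shNC 1, 2 and 3. The groups overlapped in TPM, and the lowest value was that of shNC 3. Its log2 difference was 0.40 (edgeR adjusted p = 0.457; 95% interval -0.27 to 1.07), and 0.16 without shNC 3. These values rest on 11 to 26 estimated reads per library.

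Clearance enzymes were at low level in all libraries. CYP26A1 (Entrez 1592), whose DR5 is shown above and whose gene occupies bases 93073475 to 93077890 of chromosome 10, was at 0.29, 0.46 and 0.95 TPM in shCUEDC1 1, 2 and 3, and at 1.25, 1.05 and 0.43 TPM in shNC 1, 2 and 3. The groups overlapped: shCUEDC1 3 was close to shNC 2, and shNC 3 was within the shCUEDC1 range. Its log2 difference was -0.65 (edgeR adjusted p = 0.470; 95% interval -1.78 to 0.48), and -0.99 without shNC 3 (edgeR adjusted p = 0.0638). Each library held 6 to 25 estimated reads of CYP26A1, and the interval reaches to both sides of 0. CYP26B1 (Entrez 56603), of the same family, was at 0.23, 0.33 and 0.30 TPM in shCUEDC1 and 0.15, 0.25 and 0.19 TPM in shNC, on 6 to 13 estimated reads, and was not tested.

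**Figure D3:**
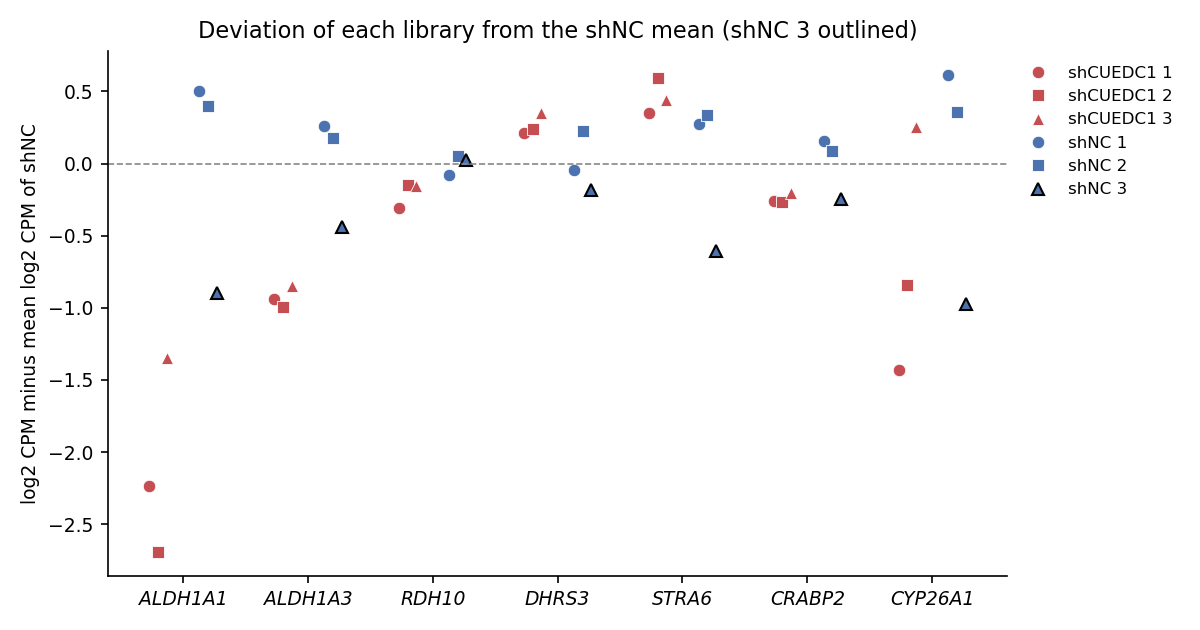
Log2 CPM of the 7 tested genes in each library minus the mean log2 CPM of the 3 shNC libraries, with shCUEDC1 in red left of shNC in blue and shNC 3 outlined in black. For 6 of the 7 genes shNC 3 is the lowest shNC library, RDH10 being the exception.

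Library shNC 3 differed from the other controls across most of the pathway. Of the 7 tested genes, 6 were lower in shNC 3 than in both other shNC libraries. Relative to the mean of shNC 1 and 2, the log2 CPM of shNC 3 was -1.29 for ALDH1A1, -1.27 for CYP26A1, -0.81 for STRA6, -0.65 for ALDH1A3, -0.37 for CRABP2, -0.27 for DHRS3 and 0.03 for RDH10. Over all genes tested the median of this quantity was -0.0003, with 5% of genes below -0.56 and 5% above 0.50. ALDH1A1, CYP26A1, STRA6 and ALDH1A3 were therefore beyond the lower of these marks. In shNC 3, however, ALDH1A1, CYP26A1 and STRA6 rested on 27, 8 and 11 estimated reads, and ALDH1A3 on 325. The marks cover genes of all levels, and the part of counting error in these gaps was not tested. Leaving aside ALDH1A1, whose gap chose it, the groups did not overlap in CPM for 3 of the other 6 (ALDH1A3 and RDH10 lower in shCUEDC1, STRA6 higher), beside 31.3% of all genes tested. Without shNC 3, and again leaving aside ALDH1A1, 4 of 8 tested were called, all lower in shCUEDC1 (ALDH1A3, RDH10, CRABP1 and CRABP2), beside 28.1% of all genes tested in that fit. This count is partly fixed by the filter. CRABP1 passed it only through shNC 1 and 2, where it was higher, and CYP26B1, not called, only through shCUEDC1.

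**Figure D4:**
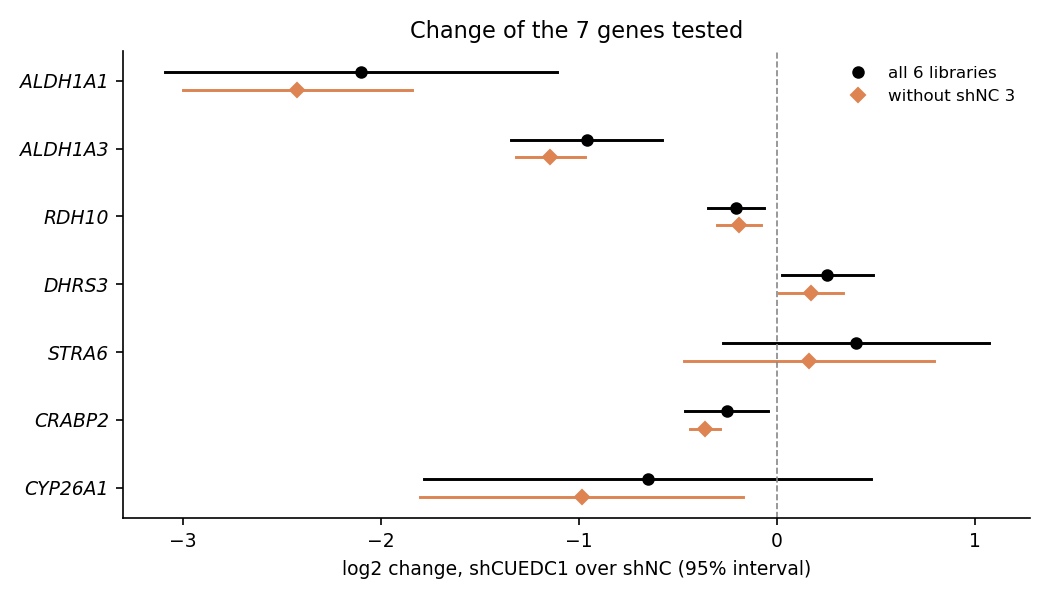
Log2 change of the 7 tested genes, shCUEDC1 over shNC, with 95% intervals from edgeR, for all 6 libraries (black) and without shNC 3 (orange). The interval of CRABP2 is -0.46 to -0.04 with all libraries and -0.44 to -0.28 without shNC 3.

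The receptors through which retinoic acid acts were expressed without a call. None of the 7 tested genes for receptors and the alternative carrier's receptor was called by edgeR, beside 9.96% of all genes. An unadjusted p below 0.05 was reached by 3 of these 7, beside 25.2% of all genes. RARA, a retinoic acid receptor, was at 73.6 ± 2.32 TPM in shCUEDC1 and 64.4 ± 5.84 TPM in shNC (log2 difference 0.22, edgeR adjusted p = 0.0889), and RARG at 65.3 ± 1.76 TPM in shCUEDC1 and 55.2 ± 7.58 TPM in shNC (0.27, edgeR adjusted p = 0.117; SD, n = 3 each). RARB, the receptor with the DR5 shown above, was at 0.91, 0.62 and 1.09 TPM in shCUEDC1 1, 2 and 3, and at 1.67, 2.44 and 0.96 TPM in shNC 1, 2 and 3. As for CYP26A1, the groups overlapped through shNC 3. The log2 difference of RARB was -0.90 (SE 0.344, edgeR adjusted p = 0.136). Without shNC 3, RARB was called lower (-1.19, edgeR adjusted p = 6.54e-04), and RARA and RARG were called higher (0.15 and 0.16, edgeR adjusted p = 0.0156 and 0.0161).

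Other genes of retinoid metabolism changed in both directions. Of 11 tested dehydrogenases and reductases 1 rose and 1 fell (18.2% called, beside 9.96% of all genes). SDR16C5, a retinol dehydrogenase of epithelia, was at 51.8 ± 3.00 TPM in shCUEDC1 and 42.2 ± 1.82 TPM in shNC (log2 change 0.32, edgeR adjusted p = 0.0171). AKR1C3, an aldo-keto reductase of steroids and retinal, was at 13.8 ± 3.07 TPM in shCUEDC1 and 28.7 ± 2.02 TPM in shNC (log2 change -1.03, edgeR adjusted p = 0.00381; SD, n = 3 each), although near-identical family members could share its reads. The call of SDR16C5 was lost without shCUEDC1 1, without shCUEDC1 3 or without shNC 2 (edgeR adjusted p = 0.0647, 0.0802 and 0.0513). The most abundant of the list, RDH11 and ADH5, differed by 0.10 and -0.08 on the log2 scale and were not called.

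Of 7 tested genes of retinol uptake, storage and carriage 0 were called, nor had any an unadjusted p below 0.05 (edgeR). Over all genes tested these shares were 9.96% and 25.2%. RETSAT, retinol saturase, was at 28.9 ± 4.31 TPM in shCUEDC1 and 26.2 ± 4.38 TPM in shNC, and RBP7, a cellular retinol-binding protein, at 24.7 ± 2.23 TPM in shCUEDC1 and 24.5 ± 8.49 TPM in shNC (SD, n = 3 each). Of 3 tested further cytochromes that oxidise retinoids 0 were called, with 2 at an unadjusted p below 0.05, beside the same shares. CYP1B1, abundant in this line, was at 274 ± 8.80 TPM in shCUEDC1 and 316 ± 45.4 TPM in shNC (log2 difference -0.18, edgeR adjusted p = 0.194). CYP1A1 was at 17.3 ± 0.589 TPM in shCUEDC1 and 27.2 ± 7.99 TPM in shNC (-0.62, edgeR adjusted p = 0.0615; SD, n = 3 each). For CYP1B1 and CYP1A1 shNC 3 was the highest library, with 367 and 36.3 TPM. For CYP2S1, the other tested cytochrome (named after its values were seen), shNC 3 was the lowest: it was at 7.43, 6.45 and 6.51 TPM in shCUEDC1 1, 2 and 3, and at 9.10, 9.80 and 5.97 TPM in shNC 1, 2 and 3 (log2 difference -0.27, edgeR adjusted p = 0.405).

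Among 24 tested genes known as retinoic acid targets 3 rose, 1 fell and 20 were not called (16.7% called, beside 9.96% of all genes). An unadjusted p below 0.05 (edgeR) was reached by 9 of the 24, beside 25.2% of all genes. The median log2 change of the 24 was 0.10, beside -0.004 over all genes tested. PLAAT4, a phospholipase-like growth suppressor also induced by interferon, was at 894 ± 37.7 TPM in shCUEDC1 and 685 ± 52.6 TPM in shNC (log2 change 0.41, edgeR adjusted p = 0.00751). GPRC5A, the retinoic acid-induced orphan receptor, rose by 0.41 on the log2 scale (edgeR adjusted p = 0.00357) and ZNF703, a transcriptional cofactor of luminal breast cancer, by 0.29 (edgeR adjusted p = 0.00349). DLL1, a Notch ligand, fell by 0.65 on the same scale (edgeR adjusted p = 0.00218). TNFSF10, the death ligand TRAIL and after PLAAT4 the most abundant of the list, was at 313 ± 5.64 TPM in shCUEDC1 and 325 ± 19.1 TPM in shNC (SD, n = 3 each) and was not called. The call of PLAAT4 was lost when shCUEDC1 3 was left out (edgeR adjusted p = 0.0515). Over the 5 lists of wider retinoid genes together, 6 of 52 tested were called (11.5%), beside 9.96% of all genes. Without shNC 3 it was 25 of 53 (47.2%), 14 higher and 11 lower, beside 28.1% of all genes in that fit.

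Other aldehyde dehydrogenases, relatives of the ALDH1A enzymes with other substrates, also changed in both directions, with 2 rises, 2 falls and 10 not called among 14 tested (28.6% called, beside 9.96% of all genes). The mitochondrial enzyme ALDH2, which clears acetaldehyde, was at 36.4 ± 0.618 TPM in shCUEDC1 and 30.0 ± 1.52 TPM in shNC (log2 change 0.31, edgeR adjusted p = 0.00485). ALDH7A1, which acts in lysine breakdown, rose by 0.32 on the log2 scale (edgeR adjusted p = 0.00515). ALDH5A1, succinate semialdehyde dehydrogenase, was at 11.3 ± 0.585 TPM in shCUEDC1 and 17.2 ± 1.17 TPM in shNC (log2 change -0.59, edgeR adjusted p = 9.95e-04; SD, n = 3 each). ALDH1L2, a mitochondrial folate enzyme, fell by 0.35 on that scale (edgeR adjusted p = 0.0122), a call lost without any 1 shCUEDC1 library (0.0532 to 0.0724). The most abundant, ALDH9A1 and ALDH18A1, differed by -0.19 and -0.01 and were not called. Without shNC 3, 8 of the 14 were called (57.1%, beside 28.1% of all genes in that fit), 3 higher and 5 lower.

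**Figure D5:**
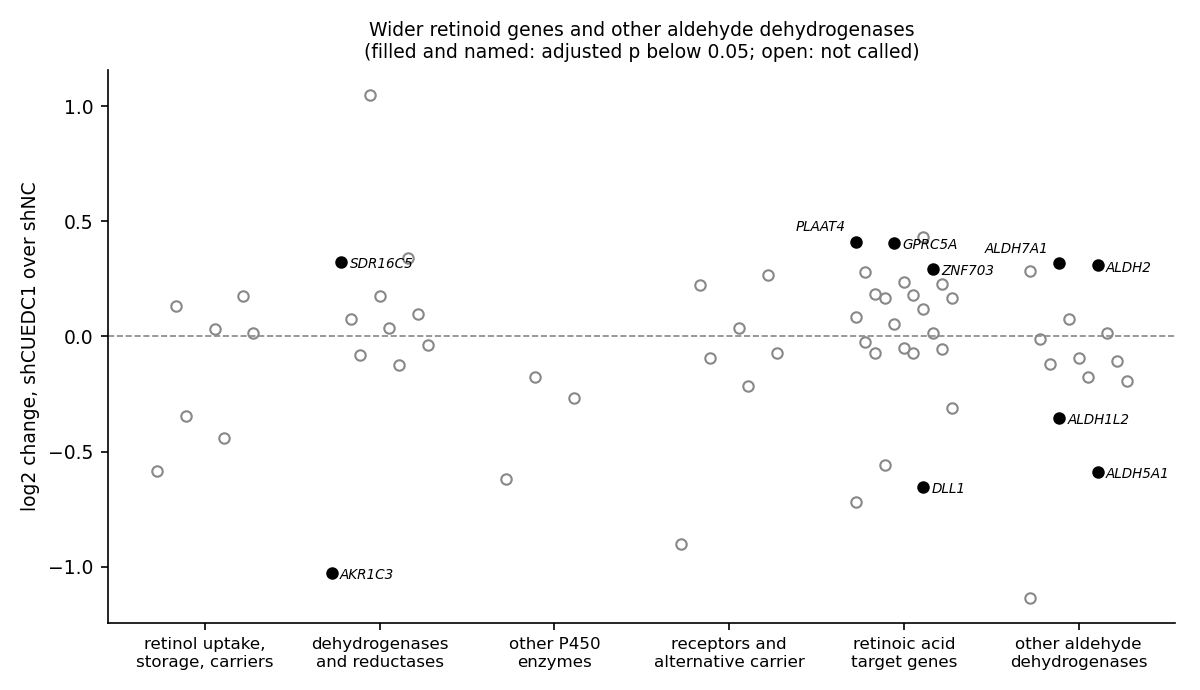
Log2 change, shCUEDC1 over shNC, of every tested gene in 5 lists of wider retinoid genes and in the other aldehyde dehydrogenases, with filled and named points for genes called by edgeR and open points for the rest. Called genes lie on both sides of 0, from -1.03 for AKR1C3 to 0.41 for PLAAT4.

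The genes whose profile over the 6 libraries was most like that of ALDH1A1 were sought among the 13017 tested genes averaging 1 CPM or more, by the root mean square difference in centred log2 CPM. Among the nearest were ISM1 (0.24), PRICKLE1 (0.25), the extracellular sulfatase SULF2 (0.35) and SERPINB5 (0.36), none of them a retinoid gene of the lists. ISM1, a secreted protein, was at 0.31, 0.21 and 0.71 TPM in shCUEDC1 1, 2 and 3, and at 2.35, 2.21 and 0.63 TPM in shNC 1, 2 and 3. PRICKLE1, of planar cell polarity, was at 0.29, 0.12 and 0.33 TPM in shCUEDC1, and at 1.29, 1.26 and 0.64 TPM in shNC. SERPINB5, the serpin maspin of breast epithelium, was at 1.33, 1.28 and 1.66 TPM in shCUEDC1, and at 6.09, 4.48 and 2.14 TPM in shNC. The search itself favours genes whose lowest control is shNC 3, as it is for ALDH1A1. For ISM1 that library lay within the shCUEDC1 range.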

How the data were processed

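RNA of 6 T47D libraries (3 shCUEDC1, 3 shNC) was analysed from 1 deposited table of 17758 genes. Its estimated counts are read counts per the file headers, and were not normalised, judging from totals that differ between libraries. They are partly fractional and were rounded. The deposited TPM and FPKM values were already corrected by the authors for length and depth. The submitters' processing notes name GRCh38.p13. For the aligner, the counter and the strand setting, the sources used here give nothing.

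Genes were filtered with filterByExpr (minimum count 10), normalised by TMM and tested by the quasi-likelihood method of edgeR 4.0.16 (R 4.3.3). P-values were adjusted by Benjamini-Hochberg over 13824 genes, with a threshold of 0.05, and the code was tested on simulated data. Totals per library were between 18924327 and 19731609. Fold changes are shCUEDC1 over shNC. TPM describes levels and CPM the fit. The genes and lists were chosen with earlier results of these data known. Named genes are all those of the pathway set, the called genes of each wider list with its 2 most abundant genes, and the 5 profiles nearest to ALDH1A1, of which 1 is not reported here. Promoter sequences are from RefSeq (GRCh38.p14, 9 of the 10 genes matched) and gene positions from GENCODE v29. Alternatives were RLE size factors, no filter, a filter of 1 CPM in 3 libraries, DESeq2 1.42.0, limma 3.58.1 (voom, and trend on log2 of deposited FPKM + 0.5 or + 0.1), a replicate block, and leaving out every library in turn.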

Additional observations from a re-analysis of the deposited data

How the results depend on the processing

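Leaving out shNC 3 moved every count by more than 1.5 times. For the wider retinoid genes and the other aldehyde dehydrogenases no other single library did so. The genes called ranged from 468 (without shCUEDC1 2) to 3925 (without shNC 3), against 1377 with all libraries. The count of pathway genes ranged from 0 (without shCUEDC1 1 or 2) to 5 (without shNC 3) against 2, that of wider retinoid genes from 4 to 25 against 6, and that of other aldehyde dehydrogenases from 3 to 8 against 4. Under the other alternatives these counts stayed within 1.5 times. The counts of pathway genes take in ALDH1A1, whose gap chose it. Besides ALDH1A1, 1 pathway gene was called with all libraries and 4 were called without shNC 3, among them CRABP1, which passed the filter only through shNC. No log2 change of the 7 pathway genes, of the 10 called genes of the lists or of CUEDC1 changed sign under any of its 13 or 14 alternatives. That of ALDH1A3 ranged from -1.14 to -0.83. Same-numbered libraries did not deviate together (correlations across genes -0.01, -0.05 and -0.02), so the numbers do not pair them. With the replicate block 1117 genes were called, 2 of the pathway (counting ALDH1A1), 8 of the wider list and 4 other aldehyde dehydrogenases. CYP26A1 rests on 6 to 25 estimated reads per library and CRABP1 on 2.97 to 18, which leaves a large counting error.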
